A study of Mus musculus with 16 samples.

Results

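The anti-Rtl1 miRNAs are made from hairpins that lie antisense to Rtl1 in the imprinted Dlk1-Dio3 region of mouse chromosome 12. They were taken by name as both arms of miR-127, miR-136, miR-431, miR-433 and miR-434, which gave 10 of the 1978 mature miRNAs in the counts. All 10 passed the filter on low counts that left 483 miRNAs for testing. Small RNA was sequenced from primary cultures of perinatal mouse forebrain neurons transduced with lentiviral vectors. The 4 groups received a vector with an shRNA, the shRNA with 2 point mutations (shRNA_2bp), the shRNA with 5 point mutations (shRNA_5bp) or the empty vector, with 4 libraries per group. Every group had therefore been transduced, the controls included, and no untransduced neurons were analysed here. The labels give neither strain nor the gene that the shRNA was designed against, nor whether replicates came from separate cultures or animals, so the p-values measure only the spread between these libraries. The question behind the comparisons is how far an shRNA alters neuronal miRNAs irrespective of its target.

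Rtl1 is a retrotransposon-derived gene expressed from the paternal chromosome, and the opposite strand is transcribed from the maternal chromosome as part of a long non-coding RNA that carries these hairpins. The resulting miRNAs are fully complementary to the Rtl1 mRNA and can direct its cleavage, which is how the maternal chromosome lowers Rtl1. A hairpin is cut by Drosha and Dicer into a duplex, 1 strand of which is usually retained in an Argonaute protein, so both arms of 1 hairpin start from the same molecule but can accumulate to different levels.

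The mature sequences, from RefSeq on GRCm38.p6, are shown because each arm has its own seed (bases 2 to 8, in capitals), and because arms of 1 hairpin are compared below. All 10 names matched an entry. The hairpins follow in the order in which they lie on the plus strand.
mmu-miR-431-5p: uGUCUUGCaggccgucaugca
mmu-miR-431-3p: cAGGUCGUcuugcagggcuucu
mmu-miR-433-5p: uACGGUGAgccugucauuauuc
mmu-miR-433-3p: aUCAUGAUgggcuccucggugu
mmu-miR-127-5p: cUGAAGCUcagagggcucugau
mmu-miR-127-3p: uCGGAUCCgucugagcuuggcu
mmu-miR-434-5p: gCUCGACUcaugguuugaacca
mmu-miR-434-3p: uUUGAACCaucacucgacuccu
mmu-miR-136-5p: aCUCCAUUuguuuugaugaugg
mmu-miR-136-3p: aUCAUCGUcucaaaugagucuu
The 10 seeds were all different, and 0 other mouse miRNAs of the RefSeq table shared any of them. The hairpins span 4942 bases, from the start of Mir431 at chr12:109590447-109590537 to the end of Mir136 at chr12:109595327-109595388. Between them lie Mir433 at chr12:109591715-109591838, Mir127 at chr12:109592846-109592915 and Mir434 at chr12:109594506-109594599, with gaps of 727 to 1590 bases between neighbours. Rtl1 is transcribed from the minus strand, and the reverse complement of each of the 10 mature sequences occurred without mismatch in the GENCODE M21 transcript Rtl1-201, inside its coding sequence (chr12:109590172-109595403). Another hairpin, Mir3071, lies on the minus strand over Mir136. Both of its arms had 0 counts in all 16 libraries, which allows at most 0.269 CPM (counts in every M counts of a library) in the deepest library and 3.61 CPM in the shallowest (3 counts, counting error only).

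Libraries held 5.30 to 8.06 M counts with shRNA, 1.18 to 2.10 M with shRNA_2bp, 0.832 to 2.50 M with shRNA_5bp and 2.76 to 11.1 M with the empty vector, so depth moved with the group. The 8 neuronal marker miRNAs summed to 40.9 to 42.7% of counts with shRNA, 35.7 to 36.9% with shRNA_2bp, 34.9 to 37.9% with shRNA_5bp and 46.0 to 47.7% with the empty vector. MiR-128-3p made up most of each sum, judging by the shares with and without it given below. By those group means the rest of the sum was not lower with the shRNA vectors than with the empty vector. The 4 microglial and leukocyte markers, 2 of them at 0 throughout, summed to at most 3.40 CPM, and the 3 erythroid markers, 2 at 0, to at most 2.55 CPM, here without scaling beyond the library total. The 3 oligodendrocyte markers, none at 0, summed to at most 14.4 CPM. The 6 vascular and fibroblast markers, none at 0, summed to 645 to 788 CPM with shRNA, 1190 to 1402 with shRNA_2bp, 1255 to 1403 with shRNA_5bp and 642 to 748 with the empty vector. The 2 astroglia-leaning markers, neither at 0, summed to 1936 to 2258 CPM with shRNA, 3462 to 3745 with shRNA_2bp, 2105 to 2369 with shRNA_5bp and 1581 to 1764 with the empty vector. The part of depth and of these markers in the results below was not tested, and in bulk RNA fewer cells of a type cannot be told apart from less RNA per cell.

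The 10 miRNAs together held 3.12 ± 0.21% of all counts with shRNA, 2.77 ± 0.143% with shRNA_2bp, 3.39 ± 0.208% with shRNA_5bp and 3.92 ± 0.112% with the empty vector (mean ± SD, n = 4 each). Every library of each shRNA vector lay below every empty-vector library. The difference was -0.79 percentage points for shRNA, -1.15 for shRNA_2bp and -0.53 for shRNA_5bp (two-sided exact permutation p = 0.0286, the smallest that 4 against 4 allows, and adjusted p = 0.0429 over 6 comparisons for each). Between the shRNA vectors the share was higher with shRNA_5bp than with shRNA_2bp by 0.62 points (exact p = 0.0286, adjusted p = 0.0429), while shRNA_2bp against shRNA (-0.36, exact p = 0.0571, adjusted p = 0.0686) and shRNA_5bp against shRNA (0.27, exact p = 0.143, adjusted p = 0.143) overlapped. The abundant neuronal miR-128-3p was then left out of the total. The 10 miRNAs held 4.67% of it with shRNA, 3.68% with shRNA_2bp, 4.58% with shRNA_5bp and 6.39% with the empty vector. In points of these larger shares, the difference from the empty vector was -1.73 for shRNA, -2.72 for shRNA_2bp and -1.81 for shRNA_5bp. On that total shRNA_2bp was lower than shRNA by 0.99 points (difference -0.99, exact p = 0.0286, adjusted p = 0.0343), and shRNA_5bp stood at 0.90 points from shRNA_2bp. The difference of shRNA_5bp from shRNA turned from 0.27 points on all counts to -0.085 on that total (exact p = 0.571, adjusted p = 0.571).

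With the empty vector the most abundant of the 10 was miR-127-3p, from a hairpin whose deletion in mice impairs the placenta. It reached 22495 ± 2067 CPM (here and below after TMM scaling between libraries, mean ± SD, n = 4) and ranked 8 among the 483 tested miRNAs. MiR-434-5p followed at 12169.6 ± 926 CPM. MiR-434-3p (3957 ± 239.5) and miR-433-3p (3679 ± 248) overlapped each other. MiR-127-5p (367 ± 14.0), miR-136-5p (201 ± 18.2), miR-136-3p (149 ± 12.4), miR-431-5p (120.4 ± 7.81), miR-431-3p (84.7 ± 12) and miR-433-5p (14.0 ± 1.30) came next, each separated from its neighbour in every library. The order was the same with the shRNA vectors except for miR-431-5p, which ranked 5 with shRNA, overlapping miR-127-5p, and 7 with shRNA_2bp and shRNA_5bp, overlapping miR-136-3p. MiR-127-3p alone made up 50.9% of the counts of the 10 miRNAs with shRNA, 47.7% with shRNA_2bp, 60.3% with shRNA_5bp and 52.0% with the empty vector, and miR-433-3p made up 9.17% with shRNA, 2.86% with shRNA_2bp, 4.14% with shRNA_5bp and 8.51% with the empty vector. The more abundant arm was 3p in miR-127 and miR-433 and 5p in miR-434, miR-136 and miR-431. With the empty vector the geometric mean ratio of 5p to 3p was 3.07 for miR-434, 1.43 for miR-431 and 1.34 for miR-136. Ligation and amplification favour some sequences over others, so levels of different miRNAs, all of 21 or 22 bases, are counts rather than molecules.

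**Figure D1:**
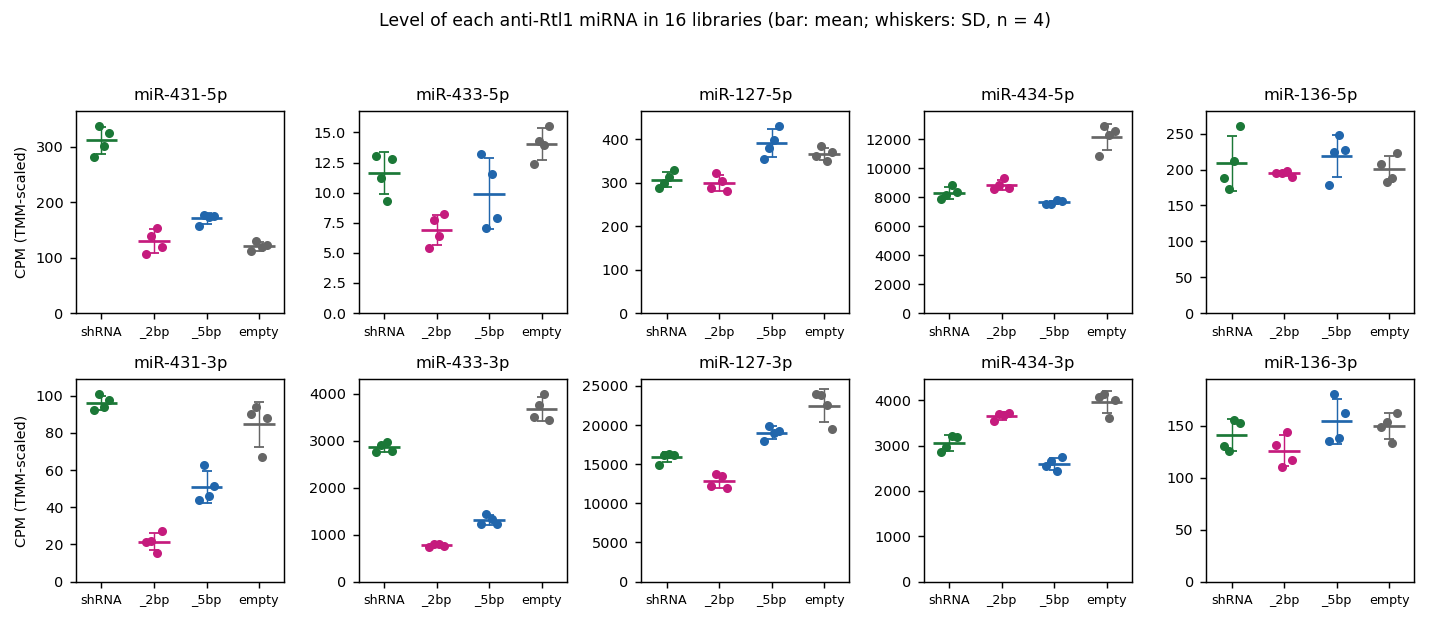
Level of each anti-Rtl1 miRNA in CPM (y axis, starting at 0) in the 4 libraries of shRNA, shRNA_2bp, shRNA_5bp and the empty vector; bars are means and whiskers SD. MiR-433-3p lies at 728 to 809 CPM with shRNA_2bp against 3451 to 3992 CPM with the empty vector, while miR-431-5p is highest with shRNA.

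The unmutated shRNA was compared with the empty vector first. MiR-431-5p, from a hairpin whose product represses the Wnt antagonist Kremen1 in mouse sensory neurons, rose. Another 5 miRNAs fell (both arms of miR-434 and miR-127, and miR-433-3p), and 4 did not pass the test. Of all 483 tested miRNAs 19.7% rose and 15.1% fell in that comparison. The median log2 fold change of the 10 was -0.27, against 0.04 over all tested miRNAs.

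MiR-431-5p had 282, 338, 301 and 325 CPM with shRNA, against 111, 130.1, 118 and 122 CPM with the empty vector. All 4 shRNA libraries were above the highest empty-vector library by more than the range of either group. Its log2 fold change was 1.37 ± 0.093 (± SE, edgeR quasi-likelihood adjusted p = 2e-12). Its opposite arm miR-431-3p had 92.6 to 101 CPM with shRNA and 67.0 to 93.7 CPM with the empty vector, which overlapped (0.17, 95% interval -0.07 to 0.41, adjusted p = 0.274). MiR-434-5p had 7871, 8135, 8840.2 and 8394 CPM with shRNA, against 10842, 12951, 12289 and 12596 CPM with the empty vector. The groups did not overlap (-0.55 ± 0.055, adjusted p = 4.75e-09), and neither did those of miR-434-3p (-0.37 ± 0.056, adjusted p = 4.97e-06). MiR-127-3p had 14909, 16239, 16251 and 16129 CPM with shRNA, against 23946, 23897, 22598 and 19538 CPM with the empty vector, again without overlap (-0.50 ± 0.062, adjusted p = 2.03e-07). MiR-433-3p, with 2756 to 2976 CPM with shRNA and 3451 to 3992 CPM with the empty vector, fell by 0.36 (SE 0.06, adjusted p = 1.97e-05). MiR-127-5p fell by 0.26 (SE 0.071, adjusted p = 0.00498). That last call was lost when library 2 of the empty vector or any 1 of libraries 1 to 3 of shRNA was omitted (-0.16 to -0.20, adjusted p = 0.0655 to 0.118), and with scaling by library totals (-0.11, adjusted p = 0.298). Both arms of miR-136 and miR-433-5p stood at -0.28 to 0.06 on the log2 scale (adjusted p = 0.238 to 0.725), with 95% intervals from -0.64 to 0.27.

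The shRNA with 2 mutations gave the steepest falls. MiR-433-3p averaged 770.0 ± 37.3 CPM with shRNA_2bp against 3679 ± 248 CPM with the empty vector, and miR-431-3p 21.5 ± 4.66 CPM against 84.7 ± 12 CPM (SD, n = 4). In all 7 of the 10 fell and 0 rose. Over all tested miRNAs 32.3% fell and 33.3% rose in that comparison. The median of the 10 was -0.38, against 0.01 over all tested miRNAs.

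MiR-433-3p had 728, 809, 793 and 751 CPM with shRNA_2bp, against 3512, 3761, 3992 and 3451 CPM with the empty vector. The highest shRNA_2bp library was far below the lowest empty-vector library (-2.26 ± 0.064, adjusted p = 3.07e-22). MiR-431-3p had 21.6, 21.7, 15.6 and 27.0 CPM with shRNA_2bp (22 to 48 counts a library), against 90.0, 93.7, 67.0 and 88.1 CPM with the empty vector. The groups lay well apart (-2.0 ± 0.152, adjusted p = 2.29e-12). Its opposite arm miR-431-5p had 106, 139, 154 and 119 CPM with shRNA_2bp, against 111, 130.1, 118 and 122 CPM with the empty vector. These overlapped (0.10, 95% interval -0.10 to 0.31, adjusted p = 0.378). The scarce arm miR-433-5p fell by 1.03 (SE 0.235, adjusted p = 0.000386), with 9 to 17 counts a library in shRNA_2bp. MiR-127-3p had 12157, 13731, 13557 and 11950.1 CPM with shRNA_2bp, below all 4 empty-vector libraries given above (-0.81 ± 0.062, adjusted p = 2.99e-12). MiR-127-5p (-0.29 ± 0.074, adjusted p = 0.000964) and miR-434-5p (-0.46 ± 0.055, adjusted p = 2.9e-08) fell less. MiR-434-3p stood at -0.11 (95% interval -0.23 to 0.00, adjusted p = 0.0827) and miR-136-5p at -0.05 (-0.27 to 0.18, adjusted p = 0.725). MiR-136-3p fell by 0.26 (SE 0.109, adjusted p = 0.0391), with overlapping groups. That call was lost when any 1 of these was omitted: empty vector 1 to 3, shRNA 1 to 3, shRNA_2bp 1 and 2, and shRNA_5bp 4 (-0.18 to -0.27, adjusted p = 0.0527 to 0.178). MiR-434-3p passed the test on omitting empty vector 4, shRNA_2bp 3, shRNA_2bp 4 or shRNA_5bp 2 (-0.17 to -0.19, adjusted p = 0.0104 to 0.0205), and with no filter on low counts (-0.22, adjusted p = 0.0051).

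With 5 mutations 6 miRNAs fell and miR-431-5p rose, and the falls of miR-433-3p and miR-431-3p were smaller than with 2 mutations. Of all tested miRNAs 26.7% fell and 31.5% rose against the empty vector. The median of the 10 was -0.42, against 0.06 over all tested miRNAs.

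MiR-433-3p had 1231, 1443, 1329 and 1233 CPM with shRNA_5bp, against 3512, 3761, 3992 and 3451 CPM with the empty vector, without overlap (-1.49 ± 0.062, adjusted p = 1.03e-17). MiR-431-3p had 43.7, 62.8, 46.0 and 51.7 CPM with shRNA_5bp, and all of these lay below the lowest empty-vector value of 67.0 CPM (-0.70 ± 0.135, adjusted p = 5.68e-05). MiR-431-5p had 156, 177, 174 and 176 CPM with shRNA_5bp, above the highest empty-vector value of 130.1 CPM (0.51 ± 0.099, adjusted p = 7.47e-05). The arms of miR-431 thus moved in opposite directions, and each passed the test. Both arms of miR-434 fell by similar amounts, miR-434-5p by 0.67 (SE 0.055, adjusted p = 2.51e-11) and miR-434-3p by 0.60 (SE 0.057, adjusted p = 3.2e-10). In each case the shRNA_5bp libraries, at 7547 to 7784 CPM for miR-434-5p and 2443 to 2739 CPM for miR-434-3p, were below every empty-vector library. MiR-127-3p fell by 0.24 (SE 0.062, adjusted p = 0.00147), with overlapping groups, and miR-433-5p by 0.62 (SE 0.23, adjusted p = 0.0211). MiR-127-5p (0.09, adjusted p = 0.279), miR-136-5p (0.13, adjusted p = 0.313) and miR-136-3p (0.06, adjusted p = 0.652) did not pass the test, with 95% intervals from -0.16 to 0.35. The miR-433-5p call was lost on omitting shRNA_5bp 2 (-0.48, adjusted p = 0.121).

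Some of these calls depended on how libraries were scaled. With library totals in place of TMM the median of all tested miRNAs was 0.18 for shRNA, 0.19 for shRNA_2bp and 0.30 for shRNA_5bp, against 0.04, 0.01 and 0.06 with TMM. On that scale miR-127-3p with shRNA_5bp stood at 0.0046 (adjusted p = 0.955) and miR-433-5p at -0.37 (adjusted p = 0.167), while miR-127-5p (0.34, adjusted p = 0.00105), miR-136-5p (0.37, adjusted p = 0.0124) and miR-136-3p (0.30, adjusted p = 0.0271) passed as higher, all 3 close to that median of 0.30. With shRNA_2bp miR-127-5p (-0.11, adjusted p = 0.248) and miR-136-3p (-0.08, adjusted p = 0.574) no longer passed, miR-431-5p did (0.28, adjusted p = 0.0223), and miR-434-3p stood at 0.07 without passing. With shRNA miR-431-3p did (0.32, adjusted p = 0.0444). Both scalings kept the call of miR-431-5p as higher with shRNA and shRNA_5bp. They kept the calls of miR-433-3p and both arms of miR-434 as lower with shRNA and shRNA_5bp. The same held for miR-127-3p as lower with shRNA and miR-431-3p as lower with shRNA_5bp. With shRNA_2bp they kept miR-433-3p, miR-431-3p, miR-127-3p, miR-433-5p and miR-434-5p as lower. Several of these were smaller on library totals, at -0.22 for miR-433-3p and -0.23 for miR-434-3p with shRNA, -0.28 for miR-434-5p with shRNA_2bp, and -0.43 for miR-434-5p, -0.36 for miR-434-3p and -0.45 for miR-431-3p with shRNA_5bp.

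**Figure D2:**
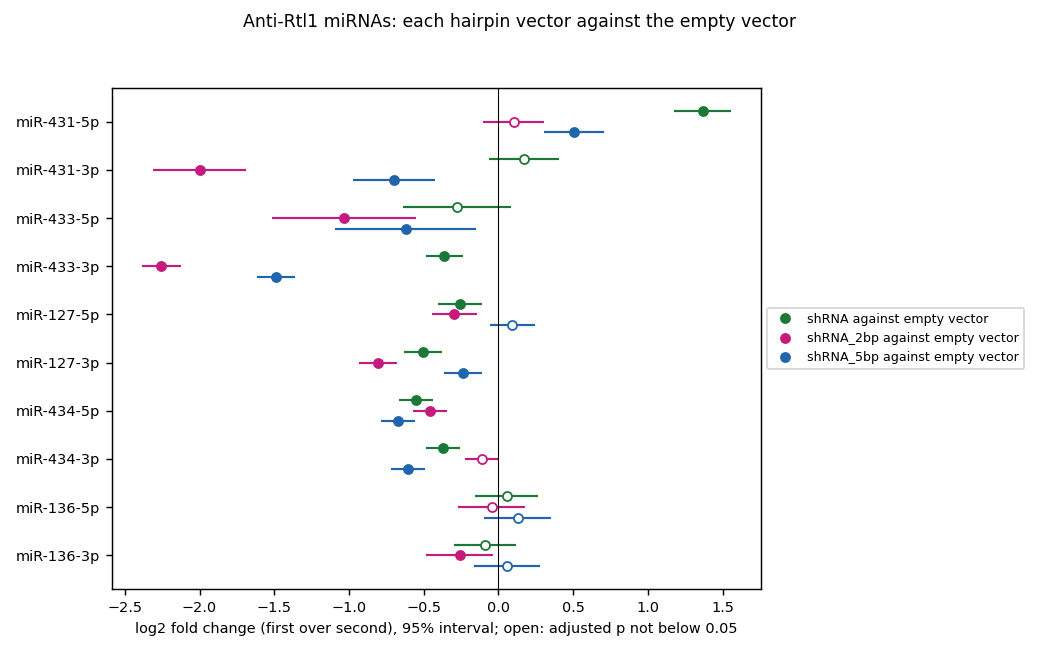
Log2 fold change (x axis) of each anti-Rtl1 miRNA with shRNA, shRNA_2bp and shRNA_5bp against the empty vector, with 95% intervals; filled points have an adjusted p below 0.05. The lowest points are miR-433-3p (-2.26) and miR-431-3p (-2.0) with shRNA_2bp, and the highest is miR-431-5p (1.37) with shRNA. The 3 comparisons share the empty-vector libraries.

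The 5 hairpins come from 1 region and are thought to share a primary transcript, so each miRNA was also set against miR-127-3p within its own library, which removes any scaling between libraries. A total of 31 of 54 such ratios (9 miRNAs by 6 comparisons) separated the groups completely, and these reached an adjusted p of 0.0498, the value given by the smallest exact p of 0.0286. Separation was common over all miRNAs. By CPM the groups did not overlap for 159 to 286 of the 483 tested miRNAs per comparison. Ratios to miR-127-3p were not computed for miRNAs outside the list. None of these 31 can pass with 1 library of a compared group omitted, where the smallest exact p is 0.0571, or with libraries paired by replicate number, where it is 0.125. In those 31 the miRNA and miR-127-3p thus changed by unequal amounts within libraries. All 54 ratios share miR-127-3p, so they are not independent of each other. Its own level passed the edgeR test in each of the 6 comparisons in the main fit (log2 fold changes of -0.81 to 0.57). MiR-433-3p was 0.06 of miR-127-3p with shRNA_2bp and 0.0686 with shRNA_5bp, against 0.164 with the empty vector (geometric means), a difference of -1.45 and -1.25 on the log2 scale. With shRNA it was 0.18, which overlapped the empty vector (difference 0.14, exact p = 0.114, adjusted p = 0.147). MiR-434-5p moved against miR-127-3p in opposite directions with the mutated shRNAs, to 0.691 with shRNA_2bp and 0.402 with shRNA_5bp, against 0.542 with the empty vector. MiR-431-5p stood at 0.0196 of miR-127-3p with shRNA, 0.01 with shRNA_2bp and 0.00898 with shRNA_5bp, and each of these was above the 0.00537 of the empty vector without overlap. With shRNA_2bp the level of miR-431-5p itself did not pass (0.10, edgeR adjusted p = 0.378), while that of miR-127-3p stood at -0.81.

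**Figure D3:**
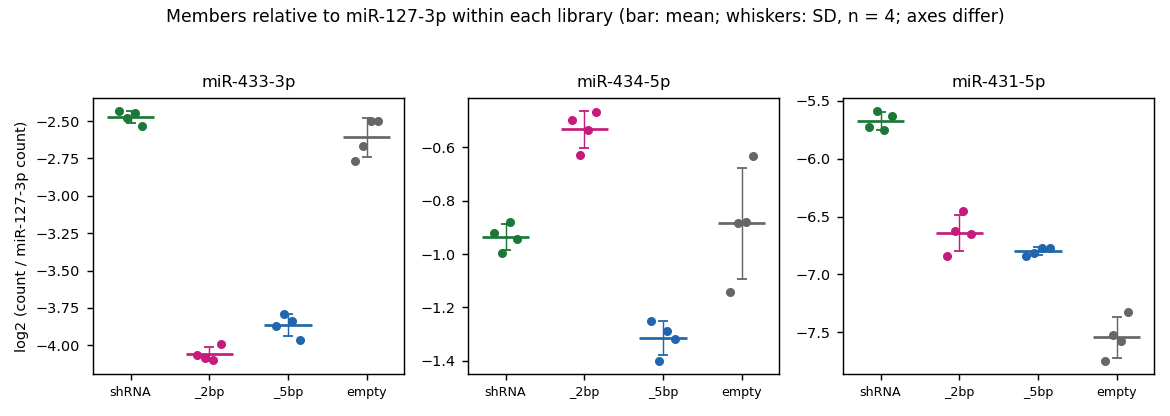
Log2 ratio of the counts of miR-433-3p, miR-434-5p and miR-431-5p to those of miR-127-3p in each library (y axes differ between panels); bars are means and whiskers SD of 4 libraries. MiR-433-3p lies at -4.10 to -3.99 with shRNA_2bp and -3.96 to -3.79 with shRNA_5bp, against -2.77 to -2.50 with the empty vector.

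The ratio of the 5p to the 3p arm of each hairpin was compared in the same way. MiR-431 stood furthest from the empty vector. Its log2 ratio of 5p to 3p was 1.61, 1.74, 1.68 and 1.73 with shRNA, 2.28, 2.66, 3.27 and 2.12 with shRNA_2bp, 1.83, 1.49, 1.90 and 1.76 with shRNA_5bp, and 0.31, 0.47, 0.82 and 0.47 with the empty vector. Every library with an shRNA lay above every empty-vector library, and the geometric mean ratio reached 6.0 with shRNA_2bp, 3.23 with shRNA and 3.36 with shRNA_5bp, against 1.43 with the empty vector. MiR-433 stood closer to its scarce 5p arm with shRNA_2bp, at -7.00 to -6.45 on the log2 scale, and with shRNA_5bp, at -7.64 to -6.49, against -8.14 to -7.79 with the empty vector. The log2 ratio of miR-434 was lower with shRNA_2bp, at 1.21 to 1.34, against 1.41 to 1.77 with the empty vector. For miR-136 the groups overlapped in all 6 comparisons.

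Over 5 hairpins and 6 comparisons, 17 of the 30 arm ratios separated the groups completely. Each had an exact permutation p of 0.0286 and an adjusted p of 0.0504, so none of them passed 0.05 by that test. Such separation was not counted over other hairpins, so whether it was more common in these 5 cannot be said. The arm ratio of miR-127 is the same value as the ratio of miR-127-5p to miR-127-3p above. Its separated comparisons passed there, at 0.0498 over 54 tests, and not here, though the exact p was the same. The adjusted p depends on the share of all tests in the set that separated, which differed slightly. A limma fit of the arm ratios of all 119 hairpins with both arms tested, chosen after those values were seen, borrows the spread from other hairpins. In it miR-431 changed in each comparison with the empty vector, by 1.17 ± 0.176 with shRNA (adjusted p = 2.29e-05), 2.07 ± 0.176 with shRNA_2bp (adjusted p = 8.3e-11) and 1.23 ± 0.176 with shRNA_5bp (adjusted p = 2.53e-06). With shRNA 3 of the 5 hairpins changed their arm ratio, where 13.4% of the 119 did. With shRNA_2bp 4 of 5 did so (37.8% of all) and with shRNA_5bp 3 of 5 (38.7% of all). The median absolute shift of the 5 hairpins from the empty vector was 0.18 with shRNA, against 0.27 over all 119. It was 0.51 against 0.48 with shRNA_2bp, and 0.33 against 0.46 with shRNA_5bp. MiR-433 shifted by 1.27 ± 0.268 with shRNA_2bp (adjusted p = 0.000273) and by 0.99 ± 0.268 with shRNA_5bp (adjusted p = 0.00344). MiR-127 shifted towards its 5p arm by 0.51 ± 0.082 with shRNA_2bp (adjusted p = 8.8e-06) and 0.33 ± 0.082 with shRNA_5bp (adjusted p = 0.00191), while miR-434 shifted towards 3p with shRNA_2bp (-0.34 ± 0.059, adjusted p = 2.08e-05). With shRNA the shifts of miR-127 (0.24, adjusted p = 0.0471) and miR-434 (-0.18, adjusted p = 0.0433) were small. The call of miR-127 was lost on omitting any 1 of empty vector 1 to 3, shRNA 1 to 4 and shRNA_2bp 1 to 3 (0.20 to 0.27, adjusted p = 0.0533 to 0.139). That of miR-434 was lost on omitting any 1 of empty vector 2 to 4, shRNA 1 to 4, shRNA_2bp 1 to 3 and shRNA_5bp 2 (-0.13 to -0.18, adjusted p = 0.0503 to 0.18). MiR-434 with shRNA_5bp passed the test on omitting empty vector 1 (-0.13, adjusted p = 0.0344).

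**Figure D4:**
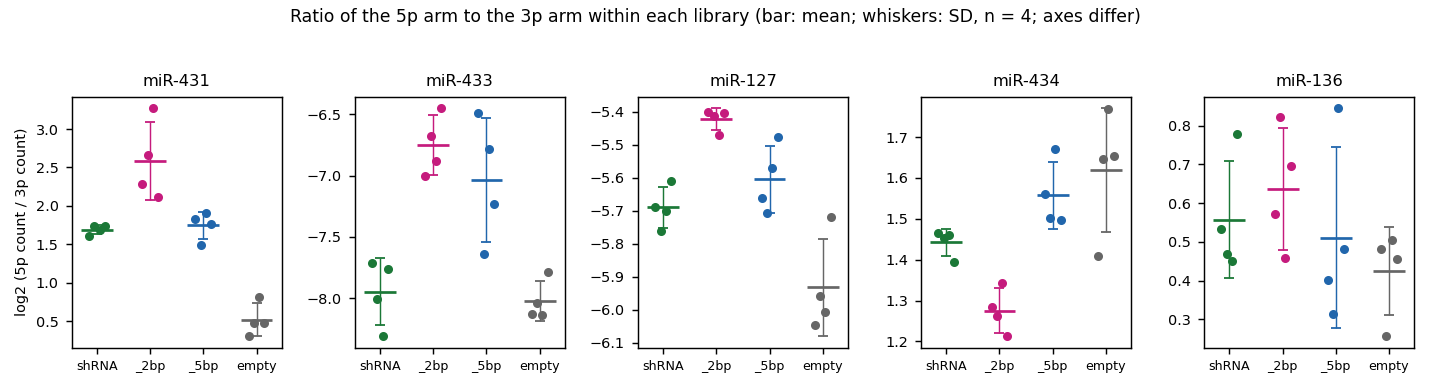
Log2 ratio of 5p to 3p counts of each hairpin in every library (y axes differ between panels); bars are means and whiskers SD of 4 libraries. For miR-431 all libraries with an shRNA, from 1.49 upwards, lie above the highest empty-vector library at 0.82.

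The mutated shRNAs were then compared with the unmutated shRNA and with each other. With shRNA_2bp 5 miRNAs fell and 1 rose against shRNA, where 33.5% of all tested miRNAs fell and 31.1% rose. Both arms of miR-431 and of miR-433 fell. The values were -1.89 ± 0.063 for miR-433-3p (adjusted p = 8.91e-21), -2.17 ± 0.151 for miR-431-3p (adjusted p = 3.2e-13), -1.26 ± 0.099 for miR-431-5p (adjusted p = 3.5e-12) and -0.75 ± 0.238 for miR-433-5p (adjusted p = 0.00713). No library of miR-433-3p overlapped, with 728 to 809 CPM for shRNA_2bp against 2756 to 2976 CPM for shRNA. MiR-127-3p also fell (-0.31 ± 0.062, adjusted p = 9.77e-05) and miR-434-3p rose (0.26 ± 0.056, adjusted p = 0.000216). MiR-136-5p (-0.10, adjusted p = 0.423), miR-136-3p (-0.17, adjusted p = 0.18) and miR-127-5p (-0.04, adjusted p = 0.676) did not pass, with 95% intervals from -0.39 to 0.12. MiR-434-5p stood at 0.09 (95% interval -0.02 to 0.21, adjusted p = 0.138), and at 0.14 with relative log expression size factors (adjusted p = 0.0342), 0.14 in DESeq2 (adjusted p = 0.0347) and 0.13 with library totals (adjusted p = 0.0487). The arm ratio changed in 4 of 5 hairpins in the limma fit (41.2% of all 119). In miR-434 that call (-0.17, adjusted p = 0.0276) was lost on omitting any 1 of shRNA 1 to 3, shRNA_2bp 2 and shRNA_2bp 4 (-0.15 to -0.16, adjusted p = 0.0538 to 0.0782).

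With shRNA_5bp 4 miRNAs fell and 2 rose against shRNA, where 24.6% of all tested miRNAs fell and 28.4% rose. MiR-433-3p fell by 1.13 (SE 0.062, adjusted p = 8.53e-15). Both arms of miR-431 fell by nearly the same amount, miR-431-5p by 0.86 (SE 0.097, adjusted p = 1.45e-08) and miR-431-3p by 0.87 (SE 0.134, adjusted p = 2.63e-06), so that their ratio differed by 0.06 (95% interval -0.30 to 0.42). MiR-434-3p fell by 0.23 (SE 0.057, adjusted p = 0.000959), but by 0.13 with library totals (adjusted p = 0.0921). MiR-127-5p (0.35 ± 0.073, adjusted p = 0.000189) and miR-127-3p (0.26 ± 0.062, adjusted p = 0.000703) rose. The call of miR-127-5p was lost on omitting shRNA 1, shRNA 2 or shRNA_5bp 4 (0.15 to 0.18, adjusted p = 0.0698 to 0.132) and with no filter on low counts (0.14, adjusted p = 0.286). That of miR-127-3p was lost on omitting any 1 of empty vector 2 and 3, shRNA 1 to 3 and shRNA_5bp 4 (0.08 to 0.12, adjusted p = 0.105 to 0.269) and with no filter (0.06, adjusted p = 0.603). The median of all tested miRNAs was -0.15 to -0.16 on each of those omissions and -0.28 with no filter, against -0.0021 in the main fit. The median was thus lower in those fits, and with no filter it was taken over 1367 miRNAs in place of 483. The part of that shift in the lost calls was not tested. MiR-434-5p stood at -0.12 (adjusted p = 0.0712), and passed as lower on omitting any 1 of empty vector 1 to 3, shRNA 1 to 3 and shRNA_5bp 4 (-0.13 to -0.29, adjusted p = 0.000164 to 0.0293). It also passed with relative log expression size factors (-0.14, adjusted p = 0.0355), in DESeq2 (-0.14, adjusted p = 0.0353) and with no filter (-0.33, adjusted p = 6.06e-07). MiR-433-5p stood at -0.34 (adjusted p = 0.221), and at -0.58 on omitting shRNA 3 (adjusted p = 0.0473). MiR-136-5p (0.07, adjusted p = 0.599) and miR-136-3p (0.15, adjusted p = 0.252) did not pass, with 95% intervals from -0.15 to 0.37. The arm ratio changed in 1 of 5 hairpins, miR-433 (26.1% of all 119), and that call (0.91, adjusted p = 0.0136) was lost on omitting shRNA 3 (0.79, adjusted p = 0.0579).

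Between the mutated shRNAs, 6 miRNAs were higher and 2 lower with shRNA_5bp than with shRNA_2bp, where 36.9% of all tested miRNAs rose and 22.8% fell and the median of all was 0.16. MiR-431-3p was higher by 1.30 ± 0.17 (adjusted p = 1.51e-07), miR-433-3p by 0.77 ± 0.063 (adjusted p = 1.74e-11), miR-127-3p by 0.57 ± 0.062 (adjusted p = 5.53e-09) and miR-127-5p by 0.39 ± 0.076 (adjusted p = 7.36e-05). The miR-433-3p libraries had 1231 to 1443 CPM with shRNA_5bp and 728 to 809 CPM with shRNA_2bp, without overlap. The arms of miR-434 went the other way, with 2443 to 2739 CPM of miR-434-3p with shRNA_5bp and 3534 to 3729 CPM with shRNA_2bp (-0.49 ± 0.057, adjusted p = 1.59e-08) and a smaller fall of miR-434-5p (-0.21 ± 0.055, adjusted p = 0.0016). MiR-431-5p rose by 0.40 ± 0.105 (adjusted p = 0.00164), but stood at 0.26 on omitting shRNA_5bp 4 (adjusted p = 0.061) and at 0.25 in a fit of these 8 libraries alone (adjusted p = 0.0677). MiR-136-3p rose by 0.32 ± 0.115 (adjusted p = 0.0194). This call was lost on omitting any 1 of empty vector 2 and 3, shRNA 1 to 3, shRNA_2bp 2, shRNA_5bp 2 and shRNA_5bp 4 (0.17 to 0.25, adjusted p = 0.0866 to 0.295). It was also lost with relative log expression size factors, in DESeq2, without the filter and in a fit of these 8 libraries alone (0.16 to 0.25, adjusted p = 0.0662 to 0.299). The median of all tested miRNAs fell from 0.16 to between 0.01 and 0.04 on omitting empty vector 2 or 3, shRNA 1 to 3 or shRNA_5bp 4. MiR-136-5p (0.17, adjusted p = 0.193) and miR-433-5p (0.41, adjusted p = 0.279) did not pass, with 95% intervals from -0.18 to 1.00. The arm ratio changed in 2 of 5 hairpins, miR-431 and miR-434 (44.5% of all 119), and miR-127 passed as well on omitting shRNA_5bp 4 (-0.22, adjusted p = 0.0436).

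**Figure D5:**
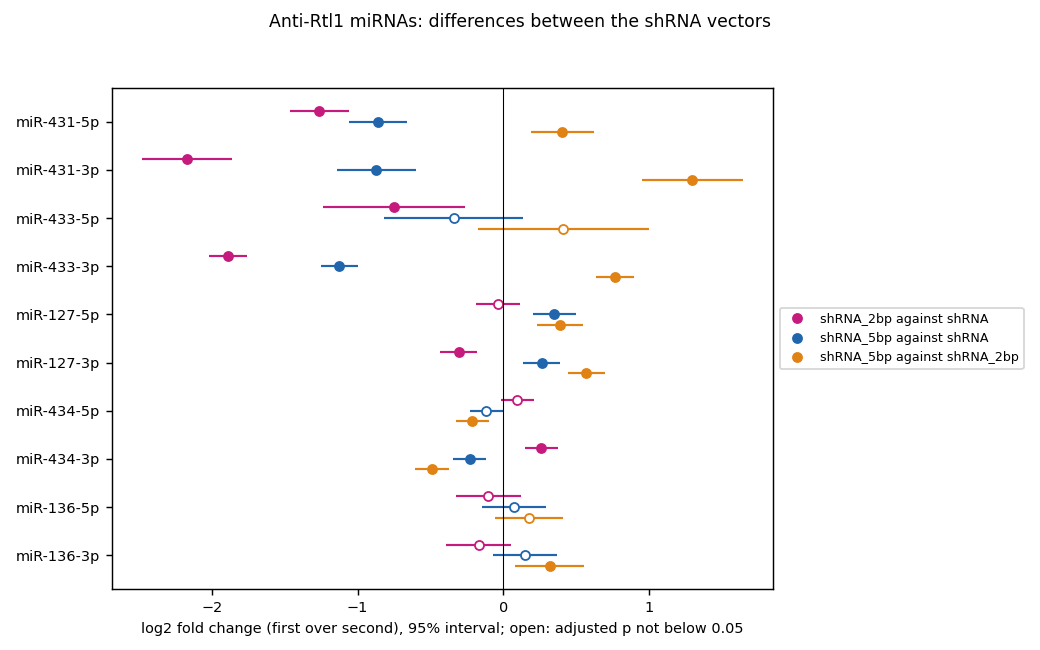
Log2 fold change (x axis) of each anti-Rtl1 miRNA between shRNA vectors, with 95% intervals; filled points have an adjusted p below 0.05. MiR-433-3p stands at -1.89 for shRNA_2bp against shRNA, -1.13 for shRNA_5bp against shRNA and 0.77 for shRNA_5bp against shRNA_2bp. Each group takes part in 2 of the comparisons.

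The rest of the Dlk1-Dio3 region gave 72 tested miRNAs. With shRNA 32 of them fell and 4 rose (median -0.32, against -0.27 for the anti-Rtl1 miRNAs and 0.04 over all tested). With shRNA_2bp 43 fell and 7 rose (median -0.89, against -0.38 and 0.01), and with shRNA_5bp 35 fell and 13 rose (median -0.27, against -0.42 and 0.06). Among region miRNAs outside the list with a mean of at least 10 CPM, the largest rise with shRNA_2bp was that of miR-376b-3p, whose family holds near-identical sequences between which reads may be divided (2.23 ± 0.085, 487 CPM against 104 CPM with the empty vector, adjusted p = 2.29e-19), and the largest fall that of miR-770-5p (-2.68 ± 0.111, 41.8 CPM against 272 CPM with the empty vector, adjusted p = 1.6e-18).

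Across the 16 libraries, the miRNA outside the list whose log2 CPM followed miR-433-3p most closely was miR-328-3p (Pearson r = 0.986), at 3267 CPM with shRNA, 1197 with shRNA_2bp, 1682 with shRNA_5bp and 4013 with the empty vector. MiR-1843b-5p came next (r = 0.976), and within the list miR-431-3p did (r = 0.919). MiR-127-3p was followed most closely by miR-341-3p (r = 0.929) and miR-541-5p (r = 0.917), both from the same imprinted region, and miR-431-5p by miR-668-3p (r = 0.86), also from that region, and miR-29a-3p (r = 0.859). MiR-434-5p was followed by miR-375-3p (r = 0.893) and miR-1843b-3p (r = 0.849), and miR-136-5p by miR-331-3p (r = 0.57) and miR-199a-5p (r = 0.548), the last at only 1.13 to 4.06 CPM in the group means. Pairs of arms from 1 hairpin had r of 0.792 for miR-127, 0.54 for miR-136, 0.48 for miR-431, 0.803 for miR-433 and 0.817 for miR-434. These coefficients describe 16 points that share 4 groups, depth and scaling.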

How the data were processed

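Small RNA libraries were made from 100 ng of total RNA with 15 PCR cycles and size selection, per the labels' protocols. The authors deposited raw read counts per mature miRNA. The submitters' processing notes name bcl2fastq 2.20.0.422, Trim Galore 0.6.0, cutadapt 1.15, Bowtie 1.1.1, edgeR and GRCm38.p6, and the role of each is not given in the sources used here. The reads carry no molecular identifiers that these sources mention, so floors cover counting error only.

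The counts of all 16 libraries were fitted in edgeR 4.0.16 (R 4.3.3; 1 mean per group, TMM scaling, filterByExpr, robust quasi-likelihood F test). Benjamini-Hochberg adjustment ran over the 483 miRNAs tested, with calls at an adjusted p below 0.05. Ratios used counts plus 0.5 and two-sided exact permutation tests (scipy 1.17.1), whose smallest p for 4 against 4 is 0.0286. Arm ratios were also fitted in limma 3.58.1 over 119 hairpins. Alternatives were DESeq2 1.42.0, other scalings, no filter, the compared groups alone, a replicate block and leaving out each library. The fits were tested on simulated data.

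The 10 miRNAs and all lists were chosen with earlier results of these data known. All 10 are named in each comparison, and of the rest of the region at most the 2 largest called rises and falls with a mean of at least 10 CPM. For the more abundant arm of each hairpin the 2 tested miRNAs with the highest Pearson r over the 16 libraries are named. The cell type markers were lists of miRNAs known from those cells.

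None of the 24 replicate pairs held identical counts. Whether replicate numbers pair the libraries was checked by the correlation of their deviations from the group means. Every pair exceeded 0.1 for shRNA against the empty vector (0.111 to 0.282) and for shRNA_2bp against shRNA (0.166 to 0.198), and in neither comparison did the block change the edgeR call of a miRNA described here. In the exact tests of ratios and shares, 4 pairs cannot give a p below 0.125, so no call can be made with the block.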

Additional observations from a re-analysis of the deposited data

Results flagged for a closer look

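In 3 of the 64 groups of 4 libraries examined for a stray library, 1 value lay far from the other 3, and chance alone gives about 1 such group in 20. The level of miR-127-3p in shRNA replicate 1 was 14909 CPM, below the 16129 to 16251 CPM of the other shRNA libraries. MiR-431-5p had 156 CPM in shRNA_5bp replicate 1, below 174 to 177 CPM in the others. The log2 arm ratio of miR-127 was -5.47 in shRNA_2bp replicate 3, against -5.41 to -5.40 in the others.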

How the results depend on the processing

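Of the 60 fold changes (10 miRNAs by 6 comparisons), 57 were unchanged with relative log expression size factors and 57 in DESeq2. Unchanged here means on the same side of the threshold, and in the same direction where the miRNA passed. Fold changes that did not pass could change sign, as that of miR-434-3p with shRNA_2bp against the empty vector did with library totals. The number unchanged was 58 with the compared groups alone, 58 with the replicate block, 55 with no filter and 48 with library totals. On leaving out each library in turn 916 were unchanged, 32 calls were lost and 12 were gained. Some of the changes went with a shift in the median of all tested miRNAs. The cause of the changes was not tested. The number that rose was 2 in place of 1 for shRNA_2bp against shRNA with relative log expression, DESeq2 and library totals. With library totals it was also 2 in place of 1 for shRNA, 1 in place of 0 for shRNA_2bp and 4 in place of 1 for shRNA_5bp, each against the empty vector, and miR-127-3p with shRNA_5bp turned to 0.0046. With no filter it was 0 in place of 2 for shRNA_5bp against shRNA, and 0 to 2 when libraries were left out in turn. The replicate block added calls for miR-434-3p with shRNA_2bp against the empty vector (-0.11, edgeR adjusted p = 0.046) and miR-434-5p with shRNA_5bp against shRNA (-0.12, edgeR adjusted p = 0.0231), in comparisons whose replicate numbers did not pair the libraries by the check. The correlations were 0.0943 to 0.163 in the former, which missed the threshold of 0.1 narrowly, and -0.044 to 0.219 in the latter.

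The summed share gave the same differences under the replicate block (-0.794, -1.15 and -0.527 points for shRNA, shRNA_2bp and shRNA_5bp against the empty vector, and 0.622 for shRNA_5bp against shRNA_2bp), where 4 pairs cannot give an exact permutation p below 0.125. It ranged from -0.865 to -0.701, -1.21 to -1.10, -0.597 to -0.444 and 0.552 to 0.705 in those comparisons when 1 library was left out, where the smallest exact p is 0.0571. With miR-128-3p left out of the total, shRNA_2bp against shRNA reached -0.989. All 31 called ratios to miR-127-3p missed the threshold under the replicate block and when 1 library of a compared group was left out, for the same limits on the exact p of 0.125 and 0.0571. Depth limits miR-433-5p most, with 9 to 17 counts a library with shRNA_2bp and 10 to 19 with shRNA_5bp.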
